A study of Mus musculus with 12 samples.

Results

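The 9 genes Postn, Cthrc1, Thbs4, Tnc, Ltbp2, Lox, Fap, Meox1 and Dio2, which mark activated cardiac fibroblasts outside the collagen family, were followed across 4 groups of sorted cells from infarcted mouse hearts. They were taken from the deposited matrices by gene symbol, each symbol had 1 row, and they are 9 of 53801 genes in the table. All 9 passed the filter on low counts and are among the 14964 genes tested. Fibroblasts of the injured heart leave their resting state, build the scar matrix and respond to transforming growth factor beta, which they hold in that matrix and release again under tension. Matricellular proteins such as periostin and tenascin-C are switched on in these cells after infarction and fall again as the scar matures. The samples themselves are labelled as cardiac macrophages.

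The first genotype, here called Bhlhe41Cre, was heterozygous for a dTomato-Cre allele at Bhlhe41 (Bhlhe41dTomato-Cre+/-), and the second was wild type (WT). Each was sorted by the chemokine receptor CCR2 into CCR2low and CCR2hi cells, which gives Bhlhe41Cre CCR2low, Bhlhe41Cre CCR2hi, WT CCR2low and WT CCR2hi with 3 libraries each. All 4 groups are labelled as C57BL/6N hearts of male mice after ligation of the left anterior descending coronary artery. The labels used here do not say how long after ligation the hearts were taken, or whether a library came from 1 animal or from pooled animals, so that p-values measure the spread between libraries.

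The libraries held 17.7 to 20.83 M counts each. The sort label and the transcripts differed: the 14 macrophage genes (such as Cd68 and Adgre1) took 2.85 to 3.10% of counts in Bhlhe41Cre CCR2low, 0.771 to 0.984% in Bhlhe41Cre CCR2hi, 3.14 to 3.42% in CCR2low cells of WT, and 0.222 to 0.521% in those of the CCR2hi gate. The 18 general fibroblast genes (such as Pdgfra, Col1a1 and Lum) took 0.245 to 0.576%, 4.46 to 5.58%, 0.577 to 0.946% and 8.20 to 8.998% of counts in the same order of groups. No macrophage gene of the list was at 0 in a CCR2hi library, and Adgre1, which encodes F4/80, averaged 198 ± 16.1 CPM in Bhlhe41Cre CCR2hi and 143 ± 62.8 CPM in WT CCR2hi. Bhlhe41 itself had 23.9, 26.0 and 13.3 CPM in Bhlhe41Cre CCR2low and 7.67, 9.45 and 6.80 in Bhlhe41Cre CCR2hi, against 41.2, 32.3 and 34.2 in CCR2low cells of WT and 45.4, 39.7 and 27.1 in its CCR2hi cells. It was lower in Bhlhe41Cre than in WT in both gates, with log2 fold changes of -0.77 ± 0.24 (edgeR adjusted p = 0.0221) in CCR2low and -2.23 ± 0.26 (adjusted p = 5.14e-05) in CCR2hi. Xist had 1403 to 3699 counts in every Bhlhe41Cre library and 0 to 3 in WT libraries, with Y-linked genes counted in all 4 groups. Y-linked Ddx3y was found beside Xist in each Bhlhe41Cre library, with a range of 24 to 582 for the CCR2low gate and 83 to 710 for CCR2hi. The WT ranges were 230 to 322 and 502 to 861. The male label alone thus does not account for the Bhlhe41Cre libraries, whose sex mix may differ between replicates. Whether animals were pooled was not tested. Sex and genotype cannot be told apart in any comparison of genotypes. In bulk RNA, fewer cells of a type and less RNA per cell cannot be told apart either, and this holds for each value that follows.

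Levels are given as CPM (counts divided by TMM-scaled library size, times 1e+06), in the order of the replicate numbers, and levels of different genes are compared only in TPM, which is per transcript length. Changes are log2 fold changes ± SE from edgeR's quasi-likelihood test, adjusted over all 14964 genes, and a gene is called at an adjusted p under 0.05. Because the fibroblast genes as a whole differed so much between the groups, the members' changes are also set on a second scale, on which the summed counts of the 18 general fibroblast genes are set equal in all libraries. There the members' SE in gate and genotype comparisons ran from 0.38 to 0.48, against 0.23 to 0.68 on the first scale. SE on the second scale were thus alike between genes and need not follow a gene's own spread. On that scale the median of all genes tested lies far from 0, at 3.74 and 3.36 for CCR2low against CCR2hi in Bhlhe41Cre and in WT, and at 1.10 and 0.85 for Bhlhe41Cre against WT in CCR2low and in CCR2hi. Scaling to the 14 macrophage genes shifted the fold changes by a median of -2.03 and -3.33 between the gates of Bhlhe41Cre and WT. Between genotypes the median shift was 0.09 in CCR2low and -1.21 in CCR2hi. These shifts ran against those of the fibroblast scale, except for the small one between genotypes in CCR2low. A change is thus to be read against the median of its scale.

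The 9 genes moved together between the gates. In Bhlhe41Cre hearts all 9 were called lower in CCR2low than in CCR2hi cells, from a log2 fold change of -2.73 for Dio2 to -4.17 for Cthrc1, against 29.1% of all genes tested lower, 24.9% higher and 54.1% in either direction. In WT hearts all 9 were again called lower in CCR2low cells, from -3.36 for Cthrc1 to -5.26 for Dio2, where 30% of all genes tested were called lower, 29.8% higher and 59.8% in either direction. On the fibroblast scale 4 of the 9 changes in Bhlhe41Cre, of Fap, Lox, Meox1 and Dio2, were above 0. The libraries of the gates did not overlap for any of the 9 in either genotype, as for 32.6% (Bhlhe41Cre) and 32.2% (WT) of all genes in the same direction and 28.7% and 33.7% in the other. Their median was -3.51 in Bhlhe41Cre and -3.74 in WT, beside -0.01 and 0.01 over all genes and -3.57 and -3.33 over the 18 general fibroblast genes, all 18 of which were called lower in both.

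Between the genotypes fewer of the 9 genes were called than between the gates. In CCR2low cells 2 of 9 were called lower in Bhlhe41Cre than in WT, Ltbp2 and Cthrc1, and 0 higher, where 26.7% of all genes were called lower, 16.4% higher and 43% in either direction. That order of lower and higher over all genes turned in 7 alternatives that keep a scale over all genes, such as without WT CCR2hi replicate 1 (2904 lower and 3620 higher). Those are also the 2 genes whose libraries did not overlap there, as for 32.3% of all genes lower and 19.1% higher. In CCR2hi cells 4 of 9 were called lower, Dio2, Ltbp2, Lox and Postn, and 0 higher, against 15.9% and 16.2% of all genes, 32.1% in either direction. Libraries of the 2 genotypes did not overlap in CCR2hi cells for 7 genes lower in Bhlhe41Cre (25.6% of all genes) and for 1 higher, Tnc (22.9% of all genes), whose difference there was below 0, at -0.69, when libraries were scaled to the macrophage genes. The median of the 9 was -0.49 in CCR2low and -1.19 in CCR2hi cells, beside -0.18 and -0.03 over all genes. Over the 18 general fibroblast genes it was -1.01 and -0.79, with 13 and 9 of 18 called lower and 0 higher. The gate difference itself was called different between the genotypes for Dio2, 1 of 9, where 4.74% of all genes were called in that direction, 7.85% in the other and 12.6% in either.

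**Figure D1:**
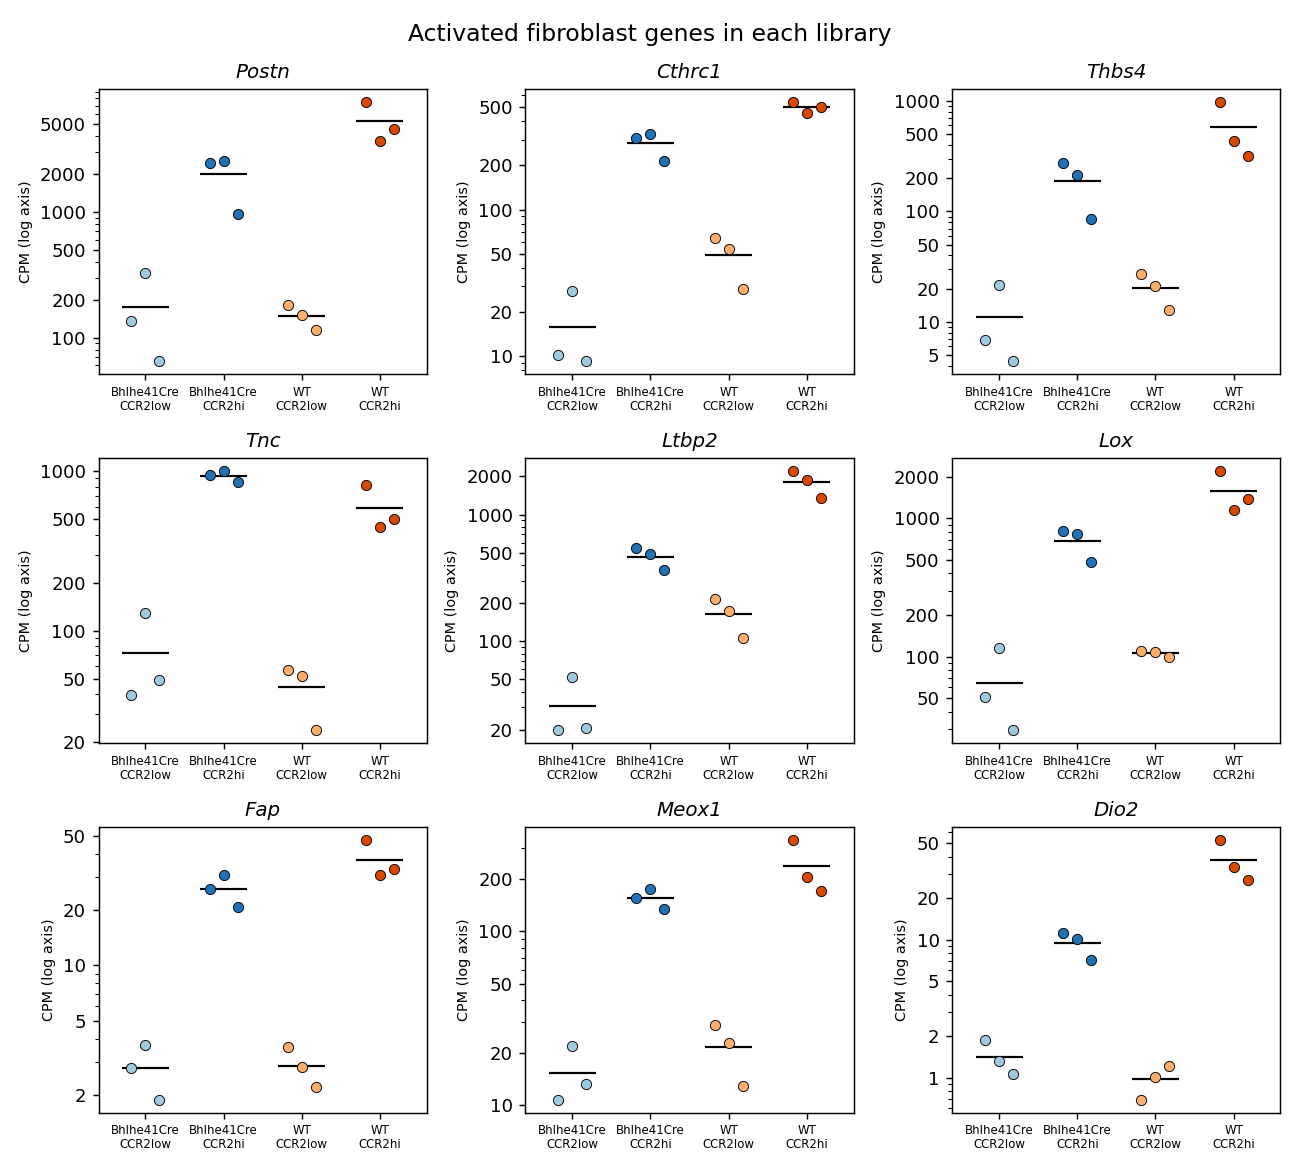
CPM of the 9 genes in each of the 12 libraries, with the CPM axis logarithmic, 1 panel per gene, groups from Bhlhe41Cre CCR2low at the left to WT CCR2hi at the right, points ordered by replicate number and bars at the mean of 3 libraries. Every gene is higher in the CCR2hi libraries of a genotype than in its CCR2low libraries, and Tnc is the gene whose Bhlhe41Cre CCR2hi libraries all lie above the WT CCR2hi libraries.

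Promoter sequence from RefSeq on GRCm38.p6 was used for 5 of 9 genes, Postn, Thbs4, Tnc, Ltbp2 and Dio2. None was used for Cthrc1, Lox, Fap and Meox1, and their promoters are not described here. Sequences are printed for 4 genes on which the comparisons of gate and genotype turn, as the 250 bases before the annotated start, 5′ to 3′ on the gene's own strand. Postn is at chr3:54360857-54361106 (plus strand), Tnc at chr4:64047016-64047265 (minus), Ltbp2 at chr12:84876492-84876741 (minus) and Dio2 at chr12:90739039-90739288 (minus, 600 bases from the start in GENCODE). Capitals mark matches, on either strand, to the SMAD core CAGAC, the AP-1 motif TGANTCA, the TEAD motif GGAATG, the homeobox core TAATTA or the TATA box TATAAA. Matches to different motifs did not overlap.
Postn: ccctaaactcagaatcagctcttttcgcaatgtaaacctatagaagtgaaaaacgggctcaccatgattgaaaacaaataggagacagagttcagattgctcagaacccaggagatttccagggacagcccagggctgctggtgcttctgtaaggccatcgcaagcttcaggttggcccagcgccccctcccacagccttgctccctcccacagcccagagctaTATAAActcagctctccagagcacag
Tnc: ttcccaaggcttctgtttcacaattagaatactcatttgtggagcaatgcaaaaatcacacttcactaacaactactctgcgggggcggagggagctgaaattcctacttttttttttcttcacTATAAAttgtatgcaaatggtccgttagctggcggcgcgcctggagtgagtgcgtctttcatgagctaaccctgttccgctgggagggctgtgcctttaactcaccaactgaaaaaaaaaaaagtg
Ltbp2: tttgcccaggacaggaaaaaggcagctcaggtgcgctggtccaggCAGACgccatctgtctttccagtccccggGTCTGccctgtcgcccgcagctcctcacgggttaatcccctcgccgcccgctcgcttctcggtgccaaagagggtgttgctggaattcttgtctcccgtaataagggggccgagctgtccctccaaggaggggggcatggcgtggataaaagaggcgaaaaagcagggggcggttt
Dio2: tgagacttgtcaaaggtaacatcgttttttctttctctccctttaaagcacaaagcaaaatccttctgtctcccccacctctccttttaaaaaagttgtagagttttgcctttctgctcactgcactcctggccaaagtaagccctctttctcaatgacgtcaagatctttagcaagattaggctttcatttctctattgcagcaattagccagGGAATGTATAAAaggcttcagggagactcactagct
TATAAA was found 26 bases before the Postn start, 30 before the Dio2 start and 126 before the Tnc start, and 12.4% of all 32851 windows of 250 bases hold it. Ltbp2 had no TATAAA and held CAGAC at 205 bases and, on the other strand, at 176 bases before its start, and 42.2% of windows hold that motif. Beside its TATAAA, Dio2 held GGAATG at 36 bases before the start, against 12.6% of windows. The window of Thbs4 held CAGAC at 226 and 186 bases and GGAATG at 197 and 192 bases before the start, all on the other strand. TGANTCA and TAATTA, in 6.7% and 4.8% of windows, were not found in the windows of the 5 genes, and a match or its absence in these letters is a description of the window. The GC content was 52% for Postn, 70.8% for Thbs4, 44.8% for Tnc, 61.6% for Ltbp2 and 41.6% for Dio2, beside a median of 52.4% over all windows.

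In the GENCODE annotation of GRCm38 (mouse release 21; mm10 names the same assembly), Postn lies at chr3:54361109-54391037, Cthrc1 at chr15:39076932-39087121, Thbs4 at chr13:92751590-92794818, Tnc at chr4:63959785-64047015, Ltbp2 at chr12:84783212-84876532, Lox at chr18:52516067-52529867, Fap at chr2:62500943-62574075, Meox1 at chr11:101877510-101894374 and Dio2 at chr12:90724552-90738438. Genes on the opposite strand overlap Tnc, Lox, Meox1, Ltbp2 and Dio2, and since the use of strand in counting is not stated, reads from both could not be separated. The overlapping genes that are in the table had at most 22 counts in a library beside Tnc, 3 beside Meox1, 48 beside Ltbp2 and 13 beside Dio2. For Dio2 this is not small, since its own counts in the CCR2low libraries were 13 to 35. The gene that overlaps Lox is not in the table and was not measured.

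Postn encodes periostin, a secreted matricellular protein that binds collagen and integrins and is the marker most used for activated cardiac fibroblasts. Its level was 135, 324 and 64.7 CPM in Bhlhe41Cre CCR2low, against 2451, 2559 and 968 in Bhlhe41Cre CCR2hi. In WT hearts it was 181, 152 and 115 CPM in CCR2low and 7514, 3687 and 4550.1 in CCR2hi. The CCR2hi libraries were higher in both genotypes with no overlap, replicate 1 of WT CCR2hi stood highest, and the CCR2low libraries of Bhlhe41Cre spread on both sides of those of WT. The change in CCR2low against CCR2hi was -3.51 ± 0.54, adjusted p = 0.000115, in Bhlhe41Cre cells, and -5.14 ± 0.59, adjusted p = 6.89e-06, in WT cells. Between genotypes it was not called in CCR2low (0.23 ± 0.50, adjusted p = 0.737), and it was lower in Bhlhe41Cre in CCR2hi (-1.40 ± 0.50, adjusted p = 0.049), a call that held in 6 of 20 alternative settings that keep a scale over all genes (adjusted p from 0.0122 to 0.175). Without WT CCR2hi replicate 1 that difference was -1.06 (adjusted p = 0.175), and without Bhlhe41Cre CCR2hi replicate 3 it was -1.07 (adjusted p = 0.148). The call was also lost on leaving out any other WT library, Bhlhe41Cre CCR2low replicate 1, or Bhlhe41Cre CCR2hi replicates 1 and 2.

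Set against the general fibroblast genes, Postn was called lower in CCR2low than in CCR2hi in WT. Its TPM was 5.28, 6.34 and 2.78% of the summed TPM of the 18 general fibroblast genes in Bhlhe41Cre CCR2low and 5.63, 6.77 and 3.02% in Bhlhe41Cre CCR2hi. In WT it was 2.03, 1.85 and 2.03% in CCR2low and 10.5, 5.42 and 6.05% in CCR2hi. The 3 WT CCR2low libraries were the lowest of all 12, close to each other, and the other 3 groups overlapped. On this scale the gate change was -0.01 ± 0.38, adjusted p = 0.976, in Bhlhe41Cre and -1.85 ± 0.40, adjusted p = 4.01e-06, in WT, the second called in 14 of 14 alternatives that left out a library or changed the fibroblast scaling. Bhlhe41Cre was higher than WT in CCR2low (1.28 ± 0.39, adjusted p = 0.0031, called in 14 of 14 alternatives) and was not called in CCR2hi (-0.56 ± 0.39, adjusted p = 0.215). The median of all genes on this scale was 1.10 in CCR2low, close to that of Postn, and 59.8% of all genes were called higher. The gate by genotype interaction, the difference between those 2 gate changes, was 1.62 ± 0.70, adjusted p = 0.145 over all genes and 1.84 ± 0.55, adjusted p = 0.0333 on the fibroblast scale. With the replicate number as a block the first was 1.41, adjusted p = 0.025, and without Bhlhe41Cre CCR2low replicate 3 it was 2.20, adjusted p = 0.0256. The second was called in 7 of 14 alternatives and lost on leaving out WT CCR2low replicate 1 or 2, WT CCR2hi replicate 1 or 3, Bhlhe41Cre CCR2low replicate 1, or Bhlhe41Cre CCR2hi replicate 1 or 3 (adjusted p up to 0.253).

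Tnc encodes tenascin-C, a large glycoprotein deposited at wound borders and nearly absent from the resting heart. Its level was 39.7, 129 and 49.1 CPM in Bhlhe41Cre CCR2low and 952, 1003 and 849.5 in Bhlhe41Cre CCR2hi. In WT hearts it was 56.5, 52.0 and 23.7 CPM in CCR2low and 816, 445 and 501 in CCR2hi. The gates did not overlap, and all 3 Bhlhe41Cre CCR2hi libraries lay above all 3 WT CCR2hi libraries. Its gate change was nearly the same size in both genotypes, -3.69 ± 0.45, adjusted p = 1.22e-05, in Bhlhe41Cre cells, and -3.74 ± 0.45, adjusted p = 9.09e-06, in WT cells, with an interaction of 0.05 ± 0.57, adjusted p = 0.967. Bhlhe41Cre against WT gave 0.72 ± 0.41, adjusted p = 0.171 in CCR2low and 0.67 ± 0.40, adjusted p = 0.22 in CCR2hi, neither called, and the CCR2hi difference was called when those 2 groups were fitted alone (adjusted p = 0.0415).

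Relative to the fibroblast genes Tnc was the gene of the 9 that was called higher in Bhlhe41Cre in both gates. Its TPM was 0.633, 1.01 and 0.796% of the fibroblast sum in Bhlhe41Cre CCR2low, against 0.265, 0.262 and 0.177% in WT CCR2low. In CCR2hi it was 0.887, 1.08 and 1.04% in Bhlhe41Cre, against 0.48, 0.276 and 0.279% in WT. Every Bhlhe41Cre library was above every WT library, whichever the gate. The change was 1.86 ± 0.39, adjusted p = 1.87e-05 in CCR2low and 1.54 ± 0.39, adjusted p = 0.000702 in CCR2hi, called in 14 of 14 alternatives in both. On that scale 59.8% and 43.1% of all genes were called higher in the same comparisons, so a call of this direction was common. Of the 29 other activated fibroblast genes tested 5 were called higher in CCR2low and 3 in CCR2hi. Of the 18 general fibroblast genes 1 and 0 were, but they set this scale. Few calls among them follow from it, and they are no comparison for Tnc. Its gate changes on that scale were not called, at -0.20 ± 0.38, adjusted p = 0.626 in Bhlhe41Cre and -0.52 ± 0.38, adjusted p = 0.186 in WT.

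Thbs4 encodes thrombospondin-4, a calcium-binding matricellular protein of injured heart and tendon. Its level was 6.80, 21.8 and 4.41 CPM in Bhlhe41Cre CCR2low and 273, 212 and 84.8 in Bhlhe41Cre CCR2hi. WT hearts had 27.2, 21.3 and 12.7 CPM in CCR2low and 982, 432 and 319 in CCR2hi. Replicate 1 of WT CCR2hi stood far above the other WT CCR2hi libraries, and Bhlhe41Cre CCR2hi replicate 3 was the lowest of the CCR2hi libraries. The gate changes were -4.11 ± 0.66, adjusted p = 0.000203, in Bhlhe41Cre cells, and -4.82 ± 0.68, adjusted p = 5.76e-05, in WT cells. Between genotypes Thbs4 was not called, at -0.89 ± 0.61, adjusted p = 0.262 in CCR2low and -1.60 ± 0.59, adjusted p = 0.0551 in CCR2hi, where the libraries did not overlap and 6 of 20 alternatives called it. In CCR2low the difference was -1.86, adjusted p = 0.0458, without Bhlhe41Cre CCR2low replicate 2. Relative to the fibroblast genes the gate change was -0.64 ± 0.39, adjusted p = 0.11, in Bhlhe41Cre, called without Bhlhe41Cre CCR2low replicate 2 (adjusted p = 0.0421), without Bhlhe41Cre CCR2hi replicate 3 (adjusted p = 0.0384) or with the collagens left out of the scale (adjusted p = 0.0396). It stayed called in WT (-1.59 ± 0.39, adjusted p = 5.91e-05, 14 of 14 alternatives). Its genotype difference on that scale was 0.16 ± 0.39, adjusted p = 0.731 in CCR2low and -0.80 ± 0.38, adjusted p = 0.074 in CCR2hi, the second called in 2 of 14 alternatives, with the collagens left out (adjusted p = 0.0286) and without WT CCR2low replicate 3 (adjusted p = 0.0379).

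Cthrc1 encodes a secreted collagen triple helix repeat protein made by a highly activated fibroblast state in healing scars. Its level was 10.2, 27.8 and 9.23 CPM in Bhlhe41Cre CCR2low and 306, 329 and 213 in Bhlhe41Cre CCR2hi. In WT it was 63.7, 53.5 and 28.8 CPM in CCR2low and 543, 456 and 501 in CCR2hi. All 3 Bhlhe41Cre libraries lay below all 3 WT libraries in each gate, although in CCR2low the highest Bhlhe41Cre and the lowest WT library nearly met. The gate changes were -4.17 ± 0.41, adjusted p = 2.08e-06, in Bhlhe41Cre cells, and -3.36 ± 0.39, adjusted p = 7.37e-06, in WT cells. Bhlhe41Cre was lower than WT in CCR2low (-1.63 ± 0.38, adjusted p = 0.00412), a call lost, among the alternatives over all genes, where no low-count filter was used (adjusted p = 0.0508), and was not called in CCR2hi (-0.82 ± 0.36, adjusted p = 0.0978). The CCR2hi difference was called when those 2 groups were fitted alone (adjusted p = 0.00701), without Bhlhe41Cre CCR2low replicate 2 (adjusted p = 0.0207) and with the replicate number as a block (adjusted p = 0.0429). Relative to the fibroblast genes neither genotype difference was called (-0.50 ± 0.39, adjusted p = 0.251 in CCR2low and 0.04 ± 0.38, adjusted p = 0.936 in CCR2hi), nor was a gate difference (-0.66 ± 0.38, adjusted p = 0.0963, between Bhlhe41Cre gates, and -0.12 ± 0.38, adjusted p = 0.764, between WT gates). The difference between the Bhlhe41Cre gates was called in 2 of 14 alternatives, with the collagens left out of the scale (-0.77, adjusted p = 0.0308) and without Bhlhe41Cre CCR2low replicate 2 (-0.81, adjusted p = 0.0158).

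Ltbp2 encodes latent TGF-beta binding protein 2, a fibrillin-associated matrix protein which, unlike its relatives, does not bind latent TGF-beta itself. Its level was 19.8, 52.1 and 20.8 CPM in Bhlhe41Cre CCR2low, against 217, 174 and 106 in WT CCR2low. In CCR2hi it was 541, 486 and 362 CPM in Bhlhe41Cre, against 2207, 1883 and 1349 in WT. The Bhlhe41Cre libraries were below the WT libraries in each gate with a wide gap. Bhlhe41Cre was lower than WT, with changes of -2.42 ± 0.37, adjusted p = 0.000315 in CCR2low and -1.97 ± 0.36, adjusted p = 0.00129 in CCR2hi, and both were called in 20 of 20 alternatives on the scale over all genes. The gate changes were -3.90 ± 0.39, adjusted p = 2.46e-06, in Bhlhe41Cre cells, and -3.45 ± 0.38, adjusted p = 4.48e-06, in WT cells.

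Ltbp2 stayed lower in Bhlhe41Cre when set against the general fibroblast genes. Its TPM was 0.478, 0.441 and 0.35% of the fibroblast sum in Bhlhe41Cre CCR2low, against 1.04, 0.908 and 0.83% in WT CCR2low. In CCR2hi it was 0.53, 0.548 and 0.458% in Bhlhe41Cre, against 1.36, 1.25 and 0.8% in WT. All 6 Bhlhe41Cre libraries were below all 6 WT libraries. The change was -1.27 ± 0.39, adjusted p = 0.00288 in CCR2low, called in 14 of 14 alternatives, where 1.77% of all genes were called lower. In CCR2hi it was -1.12 ± 0.38, adjusted p = 0.0124, against 1.07% of all genes, and was lost without WT CCR2hi replicate 1 (-0.93, adjusted p = 0.0794), WT CCR2hi replicate 2 or Bhlhe41Cre CCR2hi replicate 3. Its gate changes on that scale were not called, at -0.36 ± 0.38, adjusted p = 0.362 in Bhlhe41Cre and -0.21 ± 0.38, adjusted p = 0.592 in WT. In CCR2low Tnc had the highest and Ltbp2 the lowest genotype difference of the 9 on both scales, and in CCR2hi Tnc was again the highest while Ltbp2 and Dio2 were the lowest.

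**Figure D2:**
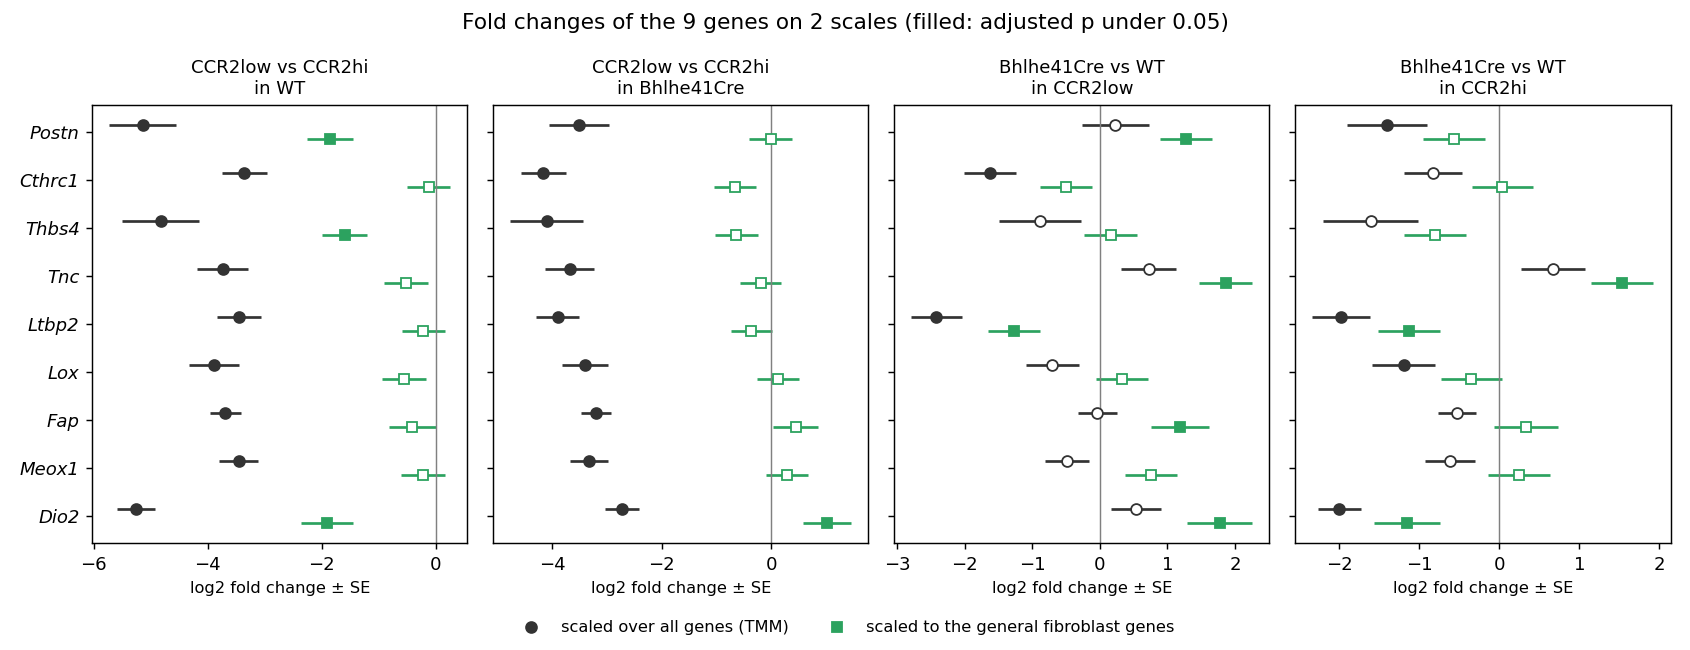
Log2 fold changes ± SE of the 9 genes in the 4 comparisons, as circles on the scale over all genes and as squares on the scale of the 18 general fibroblast genes; filled symbols have an edgeR adjusted p under 0.05 and the x axes differ between panels. In the gate panels the 9 circles are all filled and left of 0, while the squares filled there are those of Postn, Thbs4 and Dio2 in WT, left of 0, and of Dio2 in Bhlhe41Cre, right of 0, where the open squares of Fap, Lox and Meox1 also lie; in the genotype panels Tnc lies farthest right, with Ltbp2 farthest left in CCR2low and Ltbp2 and Dio2 farthest left in CCR2hi.

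Lox encodes lysyl oxidase, the enzyme that crosslinks collagen and elastin fibres. Its level was 51.2, 115 and 29.3 CPM in Bhlhe41Cre CCR2low and 813, 766 and 482 in Bhlhe41Cre CCR2hi. In WT hearts the level was 111, 108 and 99.0 CPM in CCR2low and 2192, 1142 and 1376 in CCR2hi. Bhlhe41Cre CCR2low replicate 2 was the library that reached the WT values. The gate changes were -3.40 ± 0.42, adjusted p = 1.49e-05, in Bhlhe41Cre cells, and -3.89 ± 0.43, adjusted p = 4.31e-06, in WT cells. Lox was lower in Bhlhe41Cre in CCR2hi (-1.19 ± 0.39, adjusted p = 0.032), called in 14 of 20 alternatives and lost without WT CCR2hi replicate 1 (-0.89, adjusted p = 0.117) and without Bhlhe41Cre CCR2hi replicate 2 or 3. In CCR2low it was not called (-0.70 ± 0.39, adjusted p = 0.161), and without Bhlhe41Cre CCR2low replicate 2 it was -1.39, adjusted p = 0.00478. Relative to the fibroblast genes no comparison called Lox, with values from -0.55 (gates in WT, adjusted p = 0.157) to 0.33 (genotypes in CCR2low, adjusted p = 0.449).

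Fap encodes fibroblast activation protein, a serine protease on the surface of activated fibroblasts. Its level was 2.78, 3.71 and 1.88 CPM in Bhlhe41Cre CCR2low and 26.0, 30.6 and 20.6 in Bhlhe41Cre CCR2hi. In WT it was 3.62, 2.82 and 2.19 CPM in CCR2low, on 43 to 68 counts a library, and 47.4, 30.8 and 33.1 in CCR2hi. The CCR2low libraries of the genotypes overlapped, and in CCR2hi those of Bhlhe41Cre all lay just below those of WT. The gate changes were -3.20 ± 0.27, adjusted p = 6.18e-07, in Bhlhe41Cre cells, and -3.69 ± 0.27, adjusted p = 1.85e-07, in WT cells. Between genotypes Fap was not called, at -0.04 ± 0.29, adjusted p = 0.928 in CCR2low and -0.53 ± 0.23, adjusted p = 0.101 in CCR2hi. Relative to the fibroblast genes it was higher in Bhlhe41Cre in CCR2low (1.19 ± 0.43, adjusted p = 0.0118), lost without WT CCR2low replicate 2 (adjusted p = 0.0628) or Bhlhe41Cre CCR2low replicate 1 (adjusted p = 0.0839), and not called in the other comparisons. That value was close to the median of all genes there, 1.10, with 59.8% of them called higher.

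Meox1 encodes a homeobox transcription factor that in mouse hearts is induced by pressure overload in fibroblasts and drives their activation. Its level was 10.8, 22.0 and 13.3 CPM in Bhlhe41Cre CCR2low and 155, 175 and 134 in Bhlhe41Cre CCR2hi. In WT it was 28.9, 22.8 and 12.95 CPM in CCR2low and 333.5, 205 and 171 in CCR2hi. The genotypes overlapped in both gates. The gate changes were -3.33 ± 0.34, adjusted p = 2.82e-06, in Bhlhe41Cre cells, and -3.46 ± 0.34, adjusted p = 1.56e-06, in WT cells, while the genotype differences were not called (-0.49 ± 0.32, adjusted p = 0.24 in CCR2low and -0.61 ± 0.31, adjusted p = 0.146 in CCR2hi). On the fibroblast scale no comparison called Meox1, and its largest value there was 0.76 ± 0.39, adjusted p = 0.0797 between genotypes in CCR2low, called (adjusted p = 0.0168) without Bhlhe41Cre CCR2low replicate 2. Its TPM was 0.579, 0.579 and 0.720% of the fibroblast sum in Bhlhe41Cre CCR2low and 0.444, 0.381 and 0.324% in WT CCR2low, with no overlap. In CCR2hi these shares overlapped between the genotypes.

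Dio2 encodes type 2 deiodinase, which makes active thyroid hormone from its precursor. It was the lowest of the 9 genes in TPM, and its level was 1.87, 1.31 and 1.06 CPM in Bhlhe41Cre CCR2low (18 to 35 counts a library) and 11.2, 10.1 and 7.06 in Bhlhe41Cre CCR2hi. WT hearts had 0.692, 1.01 and 1.22 CPM in CCR2low (13 to 24 counts) and 52.5, 33.5 and 27.2 in CCR2hi. The CCR2hi libraries of the genotypes were far apart, with Bhlhe41Cre below, and the CCR2low libraries overlapped. The gate change was -2.73 ± 0.31, adjusted p = 7.28e-06 in Bhlhe41Cre, the smallest of the 9, and -5.26 ± 0.33, adjusted p = 7.17e-08 in WT, the largest of the 9. The interaction was 2.53 ± 0.45, adjusted p = 0.00498 and was called in 19 of 19 alternatives on the scale over all genes (adjusted p from 3.71e-06 to 0.0225). Bhlhe41Cre was lower than WT in CCR2hi (-1.99 ± 0.26, adjusted p = 0.000134) and not called in CCR2low (0.54 ± 0.37, adjusted p = 0.262).

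Relative to the fibroblast genes Dio2 ran in opposite directions between the gates of the 2 genotypes. Its TPM was 0.0364, 0.0124 and 0.0204% of the fibroblast sum in Bhlhe41Cre CCR2low and 0.0126, 0.0132 and 0.0104% in Bhlhe41Cre CCR2hi. The WT values were 0.00382, 0.00618 and 0.0113% in CCR2low and 0.0374, 0.0251 and 0.0183% in CCR2hi. The WT gates did not overlap, and in Bhlhe41Cre the CCR2low libraries spread widely, with replicate 1 the highest and replicate 2 within the CCR2hi values. CCR2low was higher than CCR2hi in Bhlhe41Cre (1.02 ± 0.44, adjusted p = 0.024) and lower in WT (-1.90 ± 0.45, adjusted p = 3.27e-05), the first lost without Bhlhe41Cre CCR2low replicate 1 (0.49, adjusted p = 0.347) or Bhlhe41Cre CCR2hi replicate 3 (adjusted p = 0.0864). Both values lay below the medians of all genes on this scale, 3.74 in Bhlhe41Cre and 3.36 in WT. Of all genes 90.1% were called higher in Bhlhe41Cre, and 0.294% were called lower in WT. The interaction was 2.93 ± 0.63, adjusted p = 0.00101, called in 14 of 14 alternatives. Bhlhe41Cre was higher than WT in CCR2low (1.78 ± 0.48, adjusted p = 0.00087) and lower in CCR2hi (-1.15 ± 0.41, adjusted p = 0.0168), the second lost without WT CCR2hi replicate 1 (-0.81, adjusted p = 0.156), Bhlhe41Cre CCR2hi replicate 2 or Bhlhe41Cre CCR2hi replicate 3. Between genotypes 59.8% of all genes were called higher in CCR2low and 1.07% lower in CCR2hi.

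**Figure D3:**
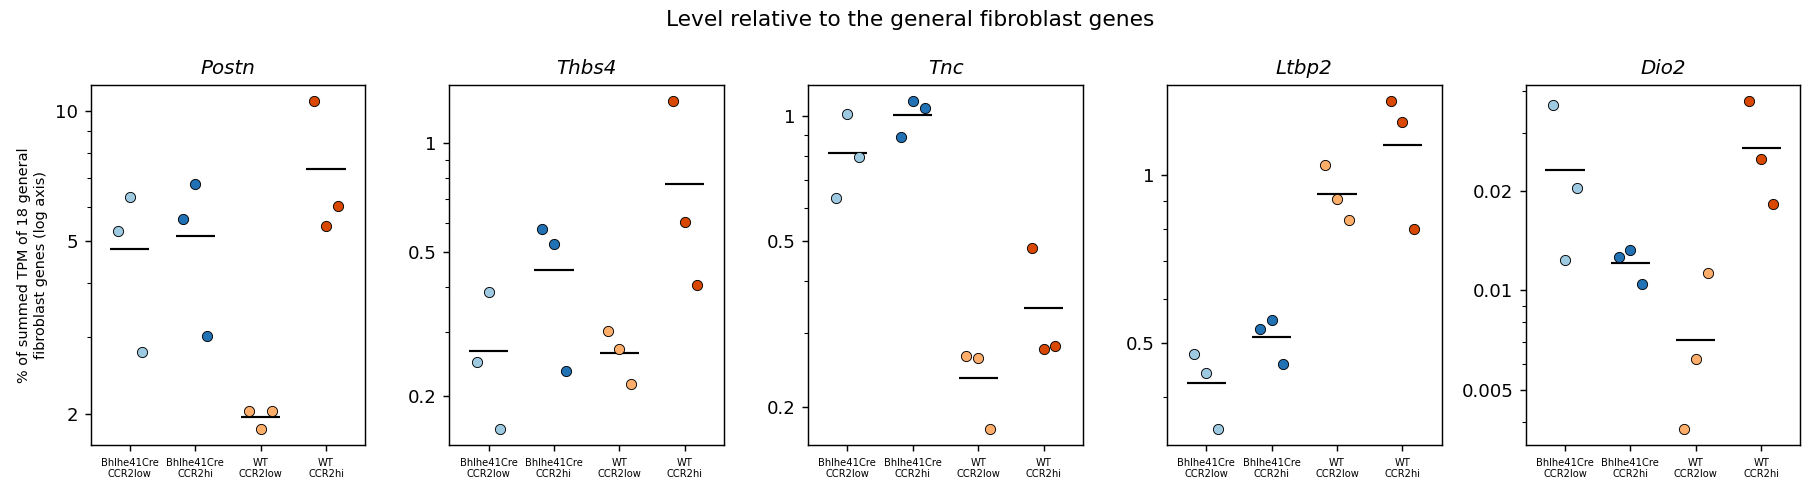
TPM of Postn, Thbs4, Tnc, Ltbp2 and Dio2 as a percent of the summed TPM of the 18 general fibroblast genes in each library, on logarithmic axes, with bars at the mean of 3 libraries. Tnc is higher in all 6 Bhlhe41Cre libraries than in all 6 WT libraries and Ltbp2 is lower in all of them, while Postn is lowest in the 3 WT CCR2low libraries.

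Across the 9 genes, the fibroblast scale left 0 called lower between the Bhlhe41Cre gates (0.0334% of all genes) and 1 higher, Dio2 (90.1% of all genes). Between the WT gates 3 were called lower (Postn, Thbs4 and Dio2), where 0.294% of all genes were called lower and 91.5% higher. Postn and Dio2 were called for the interaction, 2 of 9, where 1.9% of all genes were called in that direction and 1.25% in the other. The 6 others had WT gate differences from -0.55 (Lox) to -0.12 (Cthrc1) on that scale, with SE of 0.38 to 0.41. Between genotypes 4 of 9 were called higher in CCR2low (Tnc, Dio2, Postn and Fap) and 1 lower (Ltbp2), and in CCR2hi 1 higher (Tnc) and 2 lower (Ltbp2 and Dio2). Of all genes, 59.8% were called higher and 1.77% lower in CCR2low on that scale, and 43.1% and 1.07% in CCR2hi. The macrophage genes moved the other way between gates, with all 14 called higher in CCR2low in both genotypes, over all genes and on the fibroblast scale. Between genotypes in CCR2hi cells, 8 of 14 macrophage genes were higher and 9 of 18 general fibroblast genes lower in Bhlhe41Cre, beside the 4 members called lower there. The part of these marker shifts in the members' differences over all genes was not tested beyond the second scale.

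Compared per transcript length, Postn had the highest mean of the 9 genes in all 4 groups. It averaged 85.9 ± 70.0 TPM in Bhlhe41Cre CCR2low, 1098 ± 483 in Bhlhe41Cre CCR2hi, 69.1 ± 12.04 in WT CCR2low and 3134 ± 1274 in WT CCR2hi (SD, n = 3). That was 48.7 ± 6.91%, 44.9 ± 7.31%, 29.2 ± 1.47% and 52.4 ± 3.90% of the summed TPM of the 9. Cthrc1 came next in the CCR2hi groups, with 453 ± 100.05 TPM in Bhlhe41Cre and 877 ± 90.2 in WT, below Postn in every library there, and in WT CCR2low it stood at 65.6 ± 19.98 TPM, within the spread of Postn. Lox averaged 22.4 ± 16.8, 267 ± 76.3, 36.5 ± 1.32 and 707 ± 270.3 TPM in the same order of groups, close to Cthrc1 in Bhlhe41Cre CCR2low. The next places changed with genotype: Ltbp2 averaged 6.96 ± 3.99 TPM in Bhlhe41Cre CCR2low and 33.0 ± 9.24 in WT CCR2low, where Tnc averaged 14.02 ± 10.4 and 8.49 ± 3.13. In CCR2hi Ltbp2 averaged 108 ± 24.7 TPM in Bhlhe41Cre and 481 ± 122 in WT, and Tnc 208 ± 18.6 and 147 ± 53.5, so that the mean of Tnc stood above that of Ltbp2 in Bhlhe41Cre and below it in WT in both gates. Their libraries overlapped in Bhlhe41Cre CCR2low and in no other group. Meox1 (9.84 ± 4.43, 115 ± 14.9, 13.7 ± 4.35 and 197 ± 76.1 TPM) and Thbs4 (4.91 ± 4.47, 97.0 ± 51.4, 9.42 ± 3.08 and 329.9 ± 209.5 TPM) had libraries that overlapped in every group. Fap stayed at 15.5 ± 2.50 TPM in Bhlhe41Cre CCR2hi and 26.8 ± 7.37 in WT CCR2hi, and Dio2 at 2.55 ± 0.637 and 11.4 ± 4.29.

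Of 30 other activated fibroblast genes 29 were tested (Grem1 had 0 to 6 counts a library), and in CCR2low against CCR2hi 27 were called lower and 1 higher, Runx1, in Bhlhe41Cre and 28 lower in WT over all genes. Among them were Itga11, a collagen-binding integrin chain (-3.61 ± 0.23, adjusted p = 7.96e-08 in WT), Kif26b, a kinesin (-3.40 ± 0.23, adjusted p = 1.12e-07), and Nox4, an oxidase that makes hydrogen peroxide (-4.31 ± 0.34, adjusted p = 2.92e-07). On the fibroblast scale 0 were called lower and 5 higher in Bhlhe41Cre, and 7 lower and 5 higher in WT. Between genotypes 17 of 29 were called lower in Bhlhe41Cre in CCR2low and 23 of 29 in CCR2hi, and 0 higher in either. The smallest p was that of Comp, a matrix protein of the thrombospondin family, at 68.0 ± 19.7 CPM in Bhlhe41Cre CCR2hi, against 988 ± 273 in WT CCR2hi (-3.86 ± 0.33, adjusted p = 4.18e-06). Sfrp2, a secreted Wnt modulator (-3.24 ± 0.33, adjusted p = 1.77e-05), and Fmod, the collagen-binding fibromodulin (-2.98 ± 0.32, adjusted p = 3.18e-05), fell there too. On the fibroblast scale 8 of 29 were called lower and 5 higher in Bhlhe41Cre in CCR2low, and 13 lower and 3 higher in CCR2hi, beside medians of -0.14 and -0.88. The median of the 9 members on that scale was 0.76 in CCR2low and -0.35 in CCR2hi.

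**Figure D4:**
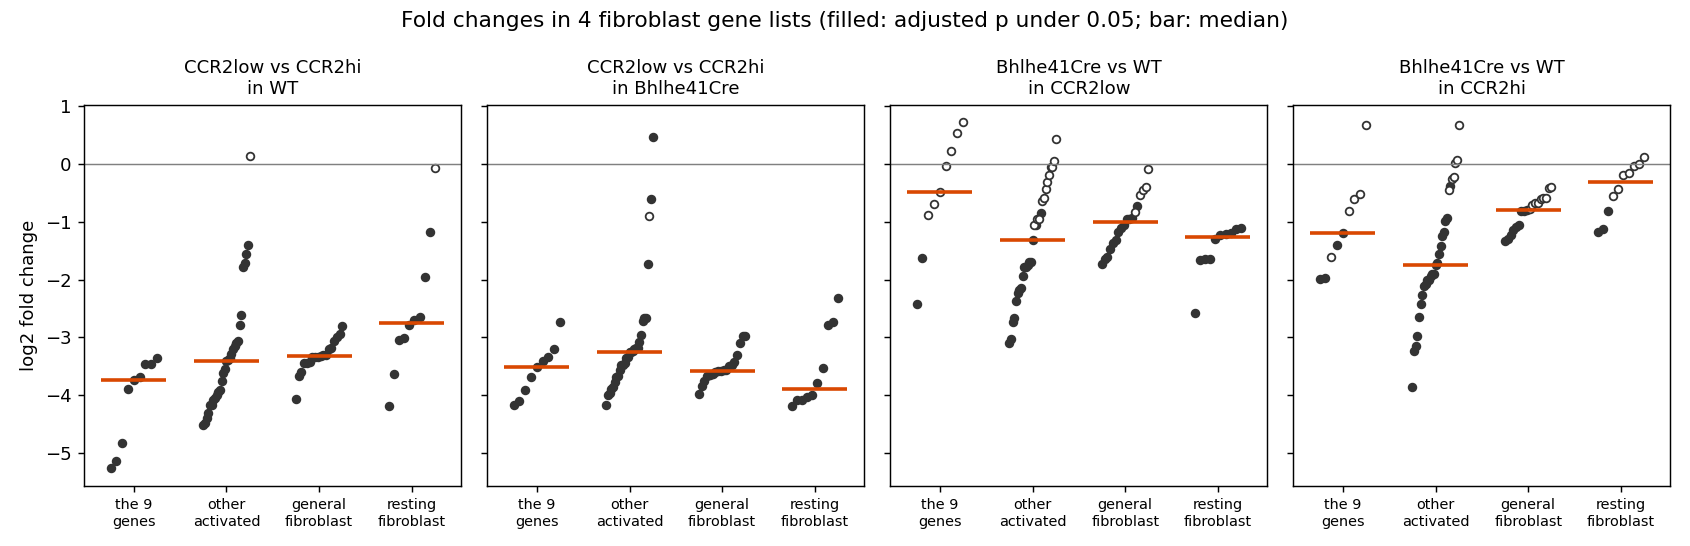
Log2 fold changes over all genes for the 9 genes, 29 other activated fibroblast genes, 18 general fibroblast genes and 10 resting fibroblast genes in the 4 comparisons, with 1 point a gene, filled where the edgeR adjusted p is under 0.05, and a bar at the median. On this scale the gate panels place nearly all points of the 4 lists below 0, and in the genotype panels the 9 genes spread on both sides of 0, with Tnc the highest in both gates and Ltbp2 the lowest in CCR2low and Dio2 in CCR2hi.

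The resting fibroblast genes, which quiescent fibroblasts express, were lower in CCR2low too, all 10 in Bhlhe41Cre and 9 of 10 in WT over all genes, and 0 and 1 of 10 on the fibroblast scale, where 2 and 4 were higher. In CCR2low all 10 were called lower in Bhlhe41Cre than in WT, and in CCR2hi 3 of 10 (Cd248, Pi16 and Smoc2). On the fibroblast scale 1 of 10 was called lower in CCR2low, Inmt, and 0 in CCR2hi, with 0 higher in either and medians of -0.16 and 0.54. Among genes of the members' own families, 17 of 18 were tested (Dio1 had 0 to 5 counts a library), and 14 were called lower in CCR2low than in CCR2hi in Bhlhe41Cre and 15 in WT over all genes, whereas 0 were called lower and 6 and 7 higher on the fibroblast scale. Thbs3 (-3.43 ± 0.26, adjusted p = 2.09e-07 in WT), Loxl1 (-3.28 ± 0.27, adjusted p = 3.52e-07), Ltbp4 (-3.13 ± 0.26, adjusted p = 3.45e-07) and Ltbp3 (-2.40 ± 0.17, adjusted p = 1.35e-07), relatives of Thbs4, Lox and Ltbp2, were among them. Tgfbi, the closest relative of Postn, went the other way, at 1159.5 ± 203 CPM in WT CCR2low and 323 ± 49.5 in WT CCR2hi (1.85 ± 0.21, adjusted p = 5.09e-06). It was higher in Bhlhe41Cre in CCR2hi (1.41 ± 0.21, adjusted p = 0.000263). Postn was lower there over all genes (edgeR adjusted p = 0.049), a call that held in 6 of 20 alternatives. On the fibroblast scale that Postn difference was not called (adjusted p = 0.215). Between genotypes 8 of the 17 relatives were called lower and 1 higher in each gate over all genes, and on the fibroblast scale 0 lower and 3 higher in CCR2low and 2 lower and 3 higher in CCR2hi. Loxl1, Ltbp3, Ltbp4 and Ltbp1 were the relatives with the smallest p for a lower level in Bhlhe41Cre CCR2low, and Thbs1 was the 1 called higher there, at 3886 ± 600.2 CPM in Bhlhe41Cre, against 1752 ± 296 in WT (1.15 ± 0.25, adjusted p = 0.00262).

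In the TGF-beta pathway itself, a list of 17 ligands, receptors, activators and inhibitors of which 16 were tested, no common direction was seen. CCR2low against CCR2hi gave 5 higher and 6 lower in Bhlhe41Cre, and 4 higher and 6 lower in WT, and on the fibroblast scale 15 and 14 of 16 were higher, as were most genes. Among the ligands, Tgfb1 was higher in CCR2low (1.10 ± 0.16, adjusted p = 4.76e-05 in WT), whereas Tgfb3 (-2.82 ± 0.17, adjusted p = 5.22e-08) and Tgfb2 (-2.36 ± 0.34, adjusted p = 5.13e-05) were lower. Tgfb3 was at 113 ± 15.3 CPM in Bhlhe41Cre CCR2hi, against 441 ± 69.8 in WT CCR2hi (-1.97 ± 0.16, adjusted p = 3.57e-06), and was also lower in Bhlhe41Cre in CCR2low (-1.26 ± 0.16, adjusted p = 0.00012). The feedback inhibitor Smad7, itself a target of the pathway, was lower in Bhlhe41Cre in CCR2hi (-1.01 ± 0.14, adjusted p = 0.000177) and not called in CCR2low (-0.29 ± 0.14, adjusted p = 0.118). Between genotypes 5 of 16 were higher and 6 lower in CCR2low, and 2 higher and 5 lower in CCR2hi, over all genes. On the fibroblast scale 9 were higher and 0 lower in CCR2low, and 4 higher and 1 lower in CCR2hi.

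The profiles of the 9 genes over the 12 libraries, compared as the root mean square difference of log2 CPM after centring each gene, were closest for Fap and Meox1 (0.283) and farthest apart for Tnc and Ltbp2 (1.46). Cthrc1 and Lox (0.427) and Postn and Thbs4 (0.455) came next after Fap and Meox1. Of 10535 genes with a mean of at least 5 CPM, the nearest to Postn that are not among the 9 were Ptn (0.438), Aspn and Hmcn2, and the nearest to Thbs4 were Col8a1 (0.388), Col12a1 and Cilp. For Tnc they included Col5a3 (0.433) and Loxl2, and for Ltbp2 they were Sfrp1 (0.181), Adamtsl2 and Mfap4. Cthrc1 had Serpinf1 (0.236), Fibin and Mfap5, Lox had Plod2 (0.184), Naalad2 and Itih5, Fap had Casc4 (0.143), Hs6st2 and Ppic, and Meox1 had Medag (0.219), Gpr153 and Col6a3. Dio2 was matched by Abca8b (0.410), Ackr4 and Dlg2. The libraries share the large difference in fibroblast transcripts between gates, and the median distance of all genes from each of the 9 was 1.73 to 2.50.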

How the data were processed

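Bulk RNA sequencing libraries of 12 samples were analysed. Per the submitters' processing notes, the authors used CASAVA 1.8, STAR 2.4.0j and RSEM (version not given) with mm10. Which annotation was used is not given in the sources used here. Expected counts were deposited by the authors in whole numbers for each Ensembl gene, and TPM in a second matrix. Columns named KD were matched to the Bhlhe41Cre samples by gate and replicate number, and those samples' groups were taken from their titles because their other labels are shifted.

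Counts were scaled by TMM, filtered with filterByExpr (14964 of 53801 genes kept) and tested with edgeR 4.0.16 in R 4.3.3, by a robust quasi-likelihood fit of 4 group means with 8 residual degrees of freedom. Tests were two-sided, with Benjamini-Hochberg adjustment over all genes tested and a threshold of 0.05. Biological variation between libraries of a group had a common coefficient of 18.9%. The scripts were tested on simulated data. Alternatives were DESeq2 1.42.0, limma 3.58.1 on log2(TPM + 1) and log2(TPM + 0.1), library size, fibroblast and macrophage scaling, no low-count filter, the compared groups alone, a replicate block, and leaving out each library. Of the fibroblast scalings, 2 (the mean log2 count, and the sum without 8 collagens) and the libraries left out on that scale were chosen after seeing the data.

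The 9 members and all gene lists were chosen with earlier results of these data known. Named genes are the 9 members, up to 4 called genes of each list and comparison by smallest p, and the 3 nearest profiles to each member, of which 1 is not reported here. Adgre1, Grem1, Runx1, Dio1, Tgfbi in WT and Thbs1 were named after their values were seen. Replicate numbers were checked for pairing by correlating deviations from the group means: between the Bhlhe41Cre gates same-numbered libraries gave 0.295, 0.145 and 0.500, all over 0.1, and between the WT gates -0.08, 0.05 and -0.04. Differently numbered libraries gave -0.446 to 0.304 between the Bhlhe41Cre gates and -0.06 to 0.08 between the WT gates.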

Additional observations from a re-analysis of the deposited data

Results flagged for a closer look

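The gate difference of Dio2 itself differed between the genotypes. CCR2low minus CCR2hi was -2.73 in Bhlhe41Cre and -5.26 in WT, and the interaction term was 2.53 on the log2 scale (edgeR adjusted p = 0.00498). In the 6 CCR2hi libraries Dio2 was lower in all 3 of Bhlhe41Cre than in all 3 of WT, while the CCR2low libraries rest on 13 to 35 counts each and overlapped. On the scale of the general fibroblast genes the term was 2.93 (adjusted p = 0.00101). Its cause was not tested.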

How the results depend on the processing

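Scaling decided most. Scaled to the general fibroblast genes by sum, by mean log2 count and without collagens, in that order, members called between the WT gates were 3, 3 and 3 lower, and between the Bhlhe41Cre gates 0, 0 and 2 lower and 1, 1 and 1 higher. The Bhlhe41Cre gate changes that turned positive were Fap (0.45, 0.38 and 0.33), Lox (0.123, 0.0561 and 0.00692), Meox1 (0.28, 0.22 and 0.17) and Dio2 (1.02, 0.95 and 0.89), and Fap between genotypes in CCR2low was 1.19, 1.05 and 1.03. Between genotypes the 3 scalings gave 1, 1 and 1 lower and 4, 4 and 4 higher in CCR2low, 2, 2 and 3 lower and 1, 1 and 1 higher in CCR2hi, and 2, 2 and 2 higher for the interaction. The scaling to a gene list shifts every fold change by construction. Macrophage scaling called 8 lower in CCR2hi and 4 higher for the interaction. Without a low-count filter, genotype calls were 1 lower in CCR2low and 2 lower in CCR2hi, as 2 were with library size scaling and with limma on unfiltered TPM, and fitting the CCR2hi groups alone called 1 higher (Tnc). Leaving out each library in turn gave 9 to 9 lower between gates in both genotypes, 2 to 4 lower in CCR2low (4 without Bhlhe41Cre CCR2low replicate 2), 2 to 6 lower in CCR2hi (2 without WT CCR2hi replicate 1, Bhlhe41Cre CCR2hi replicate 2 or Bhlhe41Cre CCR2hi replicate 3), and 1 to 2 higher and 0 to 1 lower for the interaction (Postn, without Bhlhe41Cre CCR2low replicate 3, and Cthrc1, -1.50, adjusted p = 0.0298, without Bhlhe41Cre CCR2low replicate 2). The cause of the changes other than scaling was not tested. The replicate block called 2 higher for the interaction (Postn and Dio2) and changed no call between gates; between genotypes, where numbers are only shared, it also called Cthrc1 (-0.89, adjusted p = 0.0429) and Thbs4 (-1.66, adjusted p = 0.00693) in CCR2hi, and same-numbered correlations ran from -0.33 to 0.19. Over all genes the interaction had 1884 calls (710 higher and 1174 lower), 472, 564 and 776 with the fibroblast scalings, 5884 (5777 higher) with macrophage scaling, 2291 (447 higher) with library size, 2478 (1190 higher) with DESeq2, and 1091, 870 and 665 with limma on TPM (pseudocounts of 1 and 0.1, and 1 unfiltered). It had 1150 higher and 691 lower without a low-count filter. It had 1138, 953, 871 and 927 calls without WT CCR2low replicate 1, WT CCR2low replicate 2, Bhlhe41Cre CCR2low replicate 1 and Bhlhe41Cre CCR2hi replicate 3. Without Bhlhe41Cre CCR2low replicate 3 it had 2801 (1738 higher and 1063 lower), and the split also turned without WT CCR2hi replicate 1 (887 higher and 640 lower) or Bhlhe41Cre CCR2hi replicates 1 (877 and 515), 2 (796 and 533) or 3 (518 and 409). Gate calls were 8949 (4454 higher) in WT and 8094 (3733 higher) in Bhlhe41Cre, against 13735 (13691 higher) and 13481 (13476 higher) on the fibroblast sum, 13682 to 13788 and 13395 to 13433 on the other fibroblast scalings, and 14362 (106 higher) and 13651 (66 higher) with macrophage scaling. Genotype calls were 6441 (2448 higher) in CCR2low and 4808 (2424 higher) in CCR2hi, against 9214 (8949 higher) and 6604 (6444 higher) on the fibroblast sum and 2215 and 11177 (224 higher) with macrophage scaling. The CCR2low split, 2448 higher and 3993 lower, turned without WT CCR2hi replicate 1 (3620 and 2904), Bhlhe41Cre CCR2low replicate 3 (3258 and 3031) or Bhlhe41Cre CCR2hi replicates 1 (3283 and 2502), 2 (3235 and 2501) or 3 (3320 and 2552), with the 2 groups alone (2898 and 2544) and without a low-count filter (2936 and 2666). Leaving out those libraries gave 3216 to 3824 higher and 5151 to 5509 lower between the WT gates; no filter gave 4445 higher and 3778 lower between the Bhlhe41Cre gates. With library size the splits were 2533 higher of 7917 between the Bhlhe41Cre gates and 2994 higher of 4845 between genotypes in CCR2hi. Depth limits Dio2 and Fap in CCR2low most, with 13 to 68 counts a library.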

Other observations

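Markers of the other cell types that a cardiac sort could hold were measured beside the 9 genes. The 8 endothelial genes took 0.0317 to 0.073% of counts in Bhlhe41Cre CCR2low, 0.229 to 0.29% in Bhlhe41Cre CCR2hi, 0.0611 to 0.0719% in CCR2low cells of WT and 0.143 to 0.258% in its CCR2hi cells. All 8 were called lower in CCR2low in both genotypes over all genes and higher on the fibroblast scale. Of 8 mural genes all 8 were called lower in Bhlhe41Cre than in WT in CCR2low and 2 in CCR2hi, and of 8 cardiomyocyte genes 7 and 0. The cardiomyocyte myosin gene Myh6 averaged 2.53 ± 0.474 CPM in Bhlhe41Cre CCR2low, against 13.5 ± 1.71 in WT CCR2low. Most mesothelial genes, the markers of the heart's surface layer, ran against the fibroblast genes between gates. In WT 6 of 7 were called higher in CCR2low and 1 lower, and in Bhlhe41Cre 4 of 7 higher and 1 lower. Msln averaged 55.3 ± 6.28 CPM in WT CCR2low and 5.31 ± 2.51 in WT CCR2hi. Of the mesothelial genes 6 of 7 were called lower in Bhlhe41Cre CCR2low than in WT CCR2low. Msln averaged 13.8 ± 1.82 CPM in Bhlhe41Cre CCR2low. The 6 Schwann cell genes took at most 0.00179% of counts in any library.

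Acta2, the smooth muscle actin of contractile myofibroblasts, averaged 587 ± 46.9 CPM in Bhlhe41Cre CCR2hi, against 563 ± 45.1 in WT CCR2hi (0.06 ± 0.21, adjusted p = 0.856, edgeR), and 49.5 ± 16.7 in Bhlhe41Cre CCR2low, against 171 ± 37.0 in WT CCR2low (-1.79 ± 0.22, adjusted p = 9.08e-05). Its interaction was -1.85 ± 0.30, adjusted p = 0.00311. Mural cells also express this gene, and the part of their markers in its change was not tested.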
